A study of Ovis aries with 23 samples.

Results

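Remote ventricular muscle, the part of an infarcted heart that lies away from the occluded vessel, was compared between adolescent and fetal sheep on 6 of the 23 arrays of the series. The members were the 3 arrays titled adolescent remote and the 3 titled fetal remote. Fetal sheep at 105 days of gestation and adolescent sheep of 6 months had a branch of the left anterior descending coronary artery tied, and tissue was taken 3 days later. Both groups therefore share the surgery, the infarct elsewhere in the heart and the same interval, and they differ in age. Sham-operated hearts (2 adolescent and 3 fetal arrays), border tissue (3 and 3) and infarct tissue (3 and 3) were also arrayed. No strain, sex or breed was used here, and the labels do not say that the samples of a group came from separate animals, so the p-values measure sample-to-sample spread alone, part or all of which may be technical.

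Before birth the sheep heart grows by division of its muscle cells, burns mainly glucose and lactate, pumps blood rich in fetal haemoglobin and meets few microbes. After birth cardiomyocytes leave the cell cycle and enlarge, mitochondria and fatty acid use increase, insulin-responsive glucose transport appears, and the tissue fills with resident immune cells. Comparing remote muscle at both ages asks how far such changes were visible in muscle outside the infarct.

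RNA was labelled with Cy3 and hybridised to an Agilent ovine array of 15008 probes, each a strand of 60 bases. Every level below is the log2 of a probe's processed signal less the 75th percentile of its array, so 0 is the level that 75% of probes do not reach, and levels of different probes are not compared. The 75th percentile itself was 306.8 to 374.5 intensity units on the adolescent arrays and 489.7 to 681.6 on the fetal arrays. Between 66.1% and 73.5% of probes were well above background on the adolescent arrays and between 71.5% and 81.7% on the fetal arrays, with fetal array 1 the highest. Arrays of the same age correlated at 0.966 to 0.982 and arrays of different age at 0.927 to 0.937 across probes. Each slide carried 1 array of every group at a fixed position, except that slide 1 had no adolescent sham array, so position and age cannot be told apart. Differences are between means over 3 arrays a group. A gene is described by its brightest probe, and 885 genes could be named and tested. The cardiomyocyte genes measured, MB (myoglobin) and MYH7 (slow myosin heavy chain), were well above background on all 6 arrays, while 30 of the genes chosen for description, among them MYH6, TNNT2, NPPA and HBA1, were not tested under those names.

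Of 12454 probes tested, 3882 differed with age (31.2%), 1896 higher in adolescent muscle (15.2%) and 1986 lower (15.9%), by limma with Benjamini-Hochberg adjusted p under 0.05. The median difference over all probes was 0.01. Of the 885 named genes, 285 differed (32.2%), 150 higher (16.9%) and 135 lower (15.3%), with a median of 0.07. The groups did not overlap for 412 named genes (46.6%), 273 of them among the 285. In 280 of the 285 the difference had 1 sign on all 3 slides. The 285 were called on these same arrays, so the counts of 273 and 280 are no check of the calls. With another background correction, normexp, 489 probes passed and the median over all probes moved to 0.48, so directions near 0 are not secure. Each gene named below whose age call in remote muscle also passed with normexp is marked as such. Called probes lay over the whole range of levels in the plot of all probes. Among the 20 highest differences 4 probes carried a gene name here, against 13 among the 20 lowest.

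**Figure D1:**
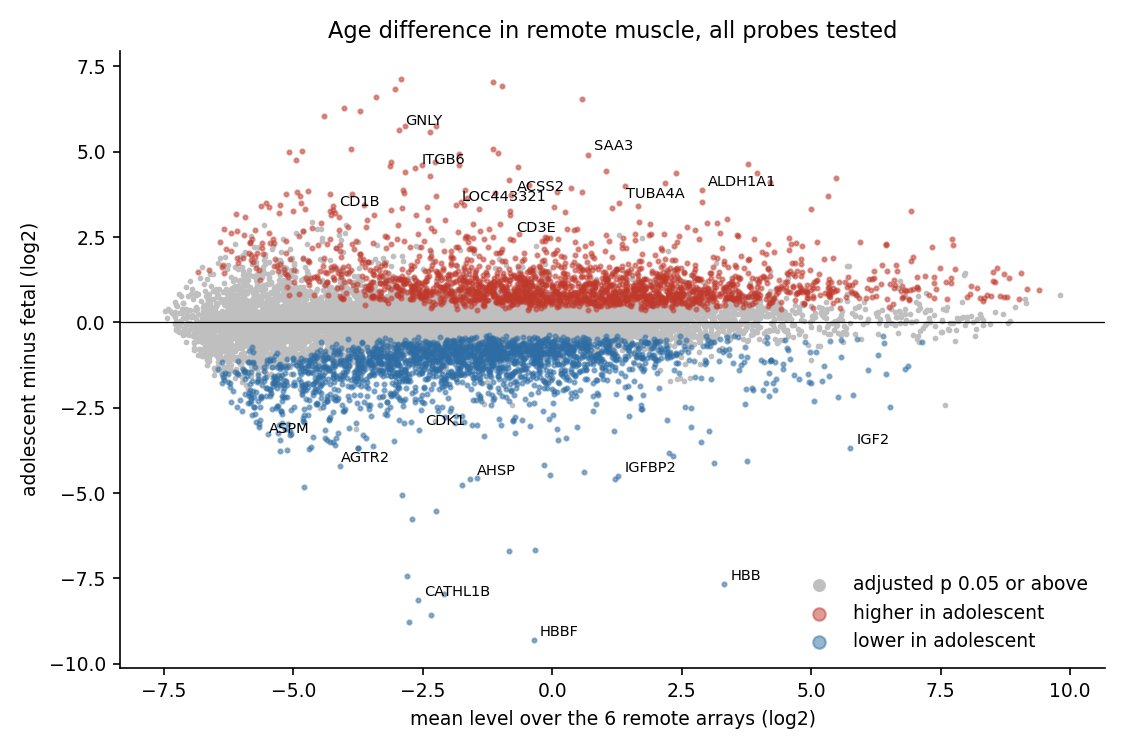
Age difference of each probe tested (adolescent minus fetal remote, log2) against its mean level over the 6 remote arrays (log2). Red and blue points are the 1896 probes higher and the 1986 lower in adolescent muscle at adjusted p under 0.05, grey points the rest, and the labelled genes are among the 12 highest and 12 lowest named ones.

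The probes behind 5 of the largest differences are shown because each reads a stretch of transcript that the results turn on: a red cell globin, a mitotic kinase, a receptor of the fetal type, a tubulin and an enzyme of acetate use. They come from the scanner files, are written 5′ to 3′ in lower case, and their GC content ran from 45% to 55%. No genome build is named for the array, so no coordinates are given.
HBB: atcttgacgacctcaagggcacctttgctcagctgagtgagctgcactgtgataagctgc
CDK1: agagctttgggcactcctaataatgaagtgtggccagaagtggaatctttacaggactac
AGTR2: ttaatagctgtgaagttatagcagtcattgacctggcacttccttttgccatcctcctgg
TUBA4A: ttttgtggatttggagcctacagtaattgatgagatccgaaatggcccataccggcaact
ACSS2: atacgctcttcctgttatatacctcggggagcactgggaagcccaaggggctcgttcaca

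The largest falls with age were in globins and in antimicrobial peptides of white blood cells. HBBF, the beta chain of fetal haemoglobin, stood at 4.34, 4.48 and 4.04 on fetal arrays 1, 2 and 3 and at −5.13, −5.44 and −4.46 on the adolescent arrays. The ages did not overlap, and HBBF was 630-fold lower in adolescent muscle (log2 difference −9.30, SE 0.56, adjusted p = 2.0e-08 by limma). No adolescent array was well above background. The adolescent readings lay just above the background limit of each array, so the bound equals this estimate and is not a floor below it. HBBF ranked lowest by this same difference, so its separation of the ages is no check of the age labels. The probe named HBB, for a beta globin, read 7.19, 7.37 and 6.90 in fetal and −1.51, −0.54 and 0.53 in adolescent muscle, a difference of −7.66 (SE 0.63, adjusted p = 3.1e-07). Sheep beta globins form a family of near-identical genes, so which family member the HBB probe read is uncertain. A dimmer HBB probe gave −4.48 (SE 1.34, adjusted p = 0.0167). AHSP, the chaperone of free alpha globin in red cell precursors, differed by −4.58 (SE 0.88, adjusted p = 0.000832), with 2 of 3 adolescent arrays well above background. Of 5 erythroid genes measured, those 3 fell and none rose, against 15.3% of named genes lower, and CA1 and EPOR gave −1.01 and −0.10. The summed erythroid signal ran from 136 to 191 times the 75th percentile on the fetal arrays and from 0.50 to 1.66 on the adolescent arrays. In a bulk sample, fewer cells of a type and less RNA per cell cannot be told apart, here and in every result below. HBB and HBBF also passed with normexp, at −7.15 and −5.97.

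Cathelicidins are antimicrobial peptides that maturing neutrophils pack into granules. CATHL1B read 3.48, 1.15 and −0.20 on fetal arrays 1, 2 and 3 and −6.86, −6.94 and −6.22 on the adolescent arrays. Fetal array 1 was highest and the ages did not overlap. No adolescent array was well above background, and CATHL1B was at least 92.1-fold lower there (difference −8.15, SE 0.88, adjusted p = 5.2e-06). BAC5, well above background on 1 adolescent array, differed by −7.96 (SE 0.95) and CATHL3 by −7.43 (SE 0.94, at least 62.1-fold lower). A related peptide gene, SC5, differed by −3.62 (SE 1.01, adjusted p = 0.0113), which was not past the threshold without fetal array 1 (adjusted p = 0.068). LTF, the iron-binding granule protein lactoferrin, fell by 2.96 (SE 0.86, adjusted p = 0.0142). That call ended without fetal array 1 (adjusted p = 0.083) or adolescent array 2 (adjusted p = 0.0947). Of 3 neutrophil genes measured, CATHL3 and LTF fell, while ITGB2, an integrin of all leukocytes, gave 1.72 with adjusted p = 0.073. CATHL1B and BAC5 passed with normexp, and CATHL3 and LTF did not. There CATHL1B gave −3.49, CATHL3 −3.02 and LTF −0.15, so the 2 bounds hold for the main background correction alone. The cathelicidin genes are close relatives, so probes may share signal.

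IGF2 and its binding protein IGFBP2 fell steeply with age. IGF2, the main fetal insulin-like growth factor, read 7.69, 7.67 and 7.46 in fetal and 3.35, 4.10 and 4.29 in adolescent muscle. All fetal values lay above all adolescent ones, 12.9-fold on average (difference −3.69, SE 0.30, adjusted p = 2.7e-07), and it was still far above background at 6 months. IGFBP2, which binds insulin-like growth factors in fetal plasma and tissue, read 3.38, 3.59 and 3.60 in fetal and 0.08, −1.28 and −1.71 in adolescent muscle. The fall was 22.5-fold (difference −4.49, SE 0.48, adjusted p = 4.5e-06). Both passed with normexp. The receptors and the postnatal hormone did not pass: IGF1 gave 0.30 (SE 0.50), IGF1R 0.08 (SE 0.42), INSR 0.36 (SE 0.29), GHR 0.12 (SE 0.37) and IGF2R −1.04 (SE 0.43, adjusted p = 0.072). MTOR, the kinase that growth signals converge on, was 1.52-fold higher (difference 0.61, SE 0.15, adjusted p = 0.00457), but not with normexp or quantile normalization. Of 13 genes of growth hormone and insulin-like growth factor action, 1 rose and 2 fell, a share near the 15.3% of named genes lower.

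Genomic imprinting silences 1 parental copy of certain growth genes. Of 4 imprinted genes measured, IGF2 and MEG3 fell, and CDKN1C, an inhibitor of the cell cycle, gave −0.55 (SE 0.34, adjusted p = 0.23). MEG3, a long noncoding RNA of a fetal growth locus, differed by −1.79 (SE 0.45, adjusted p = 0.0058). It was not well above background on any adolescent array, and the bound was at least 1.46-fold lower. Raised to the background limit MEG3 gave −0.55 and did not pass (adjusted p = 0.309), and with normexp it turned to 0.83 without passing.

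Both angiotensin receptors and endothelin fell with age. AGTR2, the angiotensin receptor that predominates before birth, read −2.26, −2.22 and −2.74 in fetal muscle and −5.45, −6.61 and −5.93 in adolescent muscle. The adolescent arrays were not well above background, so AGTR2 was at least 6.24-fold lower (difference −3.59, SE 0.37, adjusted p = 3.7e-06). AGTR1, the receptor through which angiotensin raises blood pressure, fell 2.76-fold (difference −1.47, SE 0.35, adjusted p = 0.0039). EDN1, the vasoconstrictor endothelin, fell 5.54-fold (difference −2.47, SE 0.42, adjusted p = 0.000316). Of 8 genes of this list those 3 fell and none rose, beside 15.3% of named genes lower and 16.9% higher. The endothelin receptor EDNRA gave 0.46 (SE 0.24). None of the 3 passed with normexp. There AGTR2 gave −0.22 (adjusted p = 0.83), so its bound holds for the main background correction alone.

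Corticosteroid and thyroid hormone surge around birth and mature the heart. HSD11B1, which regenerates active cortisol inside cells, read −1.49, −1.0 and −1.41 in adolescent and −3.48, −2.73 and −4.02 in fetal muscle. It was 4.32-fold higher in adolescent muscle (difference 2.11, SE 0.43, adjusted p = 0.00134), with no overlap. THRB, a nuclear thyroid hormone receptor, was 2.71-fold higher (difference 1.44, SE 0.34, adjusted p = 0.00415). The glucocorticoid receptor NR3C1 gave 0.36 (SE 0.46, adjusted p = 0.59). HSD11B2, which inactivates cortisol, gave 1.86 (SE 0.67, adjusted p = 0.0431) with overlapping arrays, and its call ended without adolescent array 1 or 3 or fetal array 2 or 3 (adjusted p = 0.0638, 0.186, 0.218 and 0.0948). Of 8 genes on this list those 3 rose and none fell, beside 16.9% of named genes higher and 15.3% lower. None of the 3 passed with normexp.

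Genes of cell division were lower in adolescent muscle. CDK1, the kinase that drives entry into mitosis, read −0.86, −0.88 and −1.29 in fetal and −3.38, −4.18 and −4.89 in adolescent muscle. The ages did not overlap and the fall was 8.81-fold (difference −3.14, SE 0.36, adjusted p = 8.2e-06), with 2 of 3 adolescent arrays well above background, as for CCNA2. CCNA2, a cyclin of DNA replication and mitosis, read −1.93, −1.72 and −2.01 in fetal and −4.0, −4.65 and −5.08 in adolescent muscle (difference −2.69, SE 0.40, adjusted p = 8.9e-05). TYMS, which makes thymidine for DNA, fell 3.30-fold (SE 0.31 on a difference of −1.72), CCNB1, the cyclin partner of CDK1, 2.92-fold (−1.55, SE 0.37), CDK2 2.71-fold (−1.44, SE 0.19) and PCNA, the sliding clamp of DNA polymerase, 2.33-fold (−1.22, SE 0.27). ASPM, a spindle pole protein, was among the 12 lowest with −3.43 (SE 0.56, adjusted p = 0.000219), on 1 adolescent array well above background, and with normexp it turned to 0.055. Of 16 cell cycle genes measured, 9 fell and 1 rose, CCND3 by 0.67, against 15.3% and 16.9% of all named genes. The list's median was −1.07 beside 0.07 over named genes. The inhibitor CDKN1B and the growth-phase genes MYC and CDK4 gave −0.70, −0.78 and −0.62 and did not pass. With normexp 1 member passed, HMGB2, a chromatin protein of dividing cells (−1.47, SE 0.31), and the median was −0.80. TYMS gave −0.17 there, and it did not pass with the authors' deposited table either (−0.48, adjusted p = 0.0646).

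**Figure D2:**
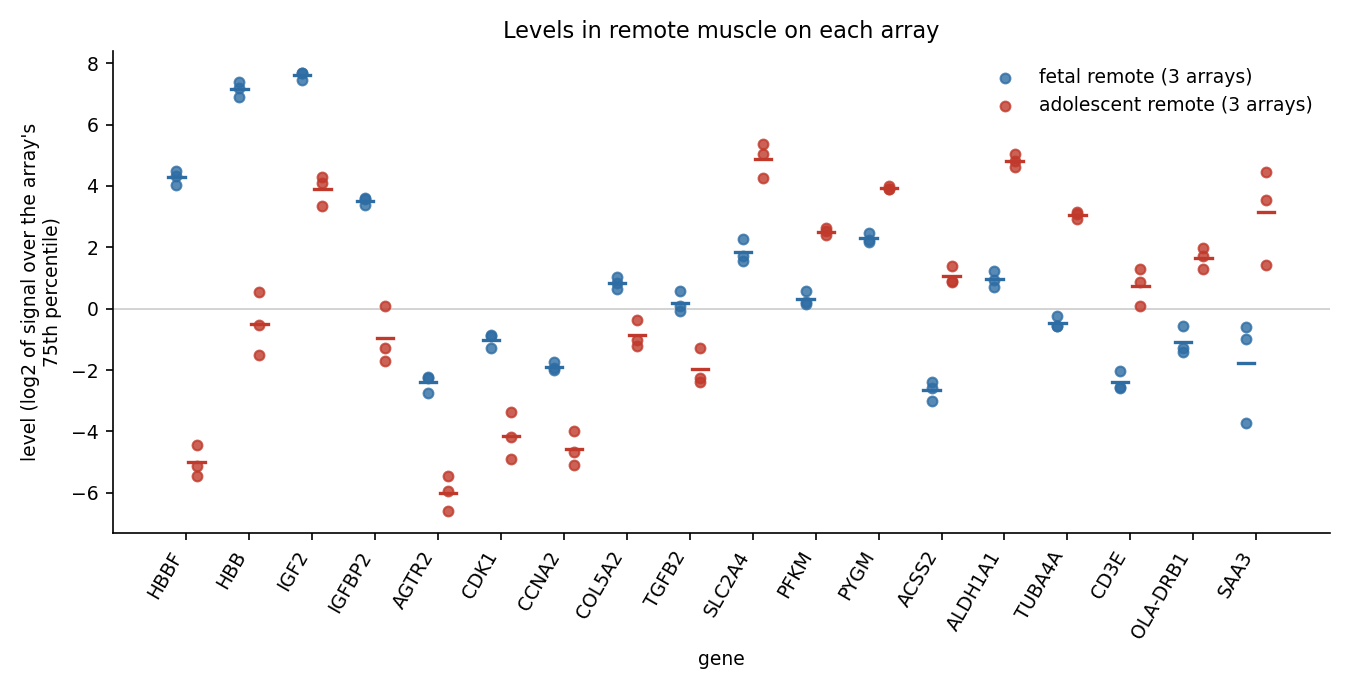
Level of 18 genes on each of the 3 fetal (blue) and 3 adolescent (red) remote arrays, as log2 of the signal over the 75th percentile of the array, with the group mean as a bar. For each gene drawn the groups do not overlap, with HBBF between 4.04 and 4.48 on fetal and between −5.44 and −4.46 on adolescent arrays.

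Glucose handling shifted between members rather than as a whole. SLC2A4, the insulin-responsive glucose transporter GLUT4, read 5.05, 5.37 and 4.25 in adolescent and 2.26, 1.72 and 1.57 in fetal muscle. It was 8.22-fold higher in adolescent muscle with no overlap (difference 3.04, SE 0.68, adjusted p = 0.0025). PFKM, the muscle phosphofructokinase that commits sugar to glycolysis, read 2.39, 2.63 and 2.53 against 0.59, 0.14 and 0.23 (4.57-fold, difference 2.19, SE 0.41, adjusted p = 0.00064). The glycogen phosphorylases PYGM and PYGB, which release glucose from glycogen, were 3.10-fold and 2.66-fold higher (differences 1.63, SE 0.35, and 1.41, SE 0.21). LDHA, the lactate dehydrogenase subunit of glycolytic tissue, read 3.64, 4.16 and 3.30 in fetal and 2.10, 1.37 and 2.72 in adolescent muscle, a 3.10-fold fall (difference −1.63, SE 0.36, adjusted p = 0.0022) that also passed with normexp. SLC2A3, a high-affinity glucose transporter, fell by 1.76 (SE 0.48, adjusted p = 0.0103), and the fetal transporter SLC2A1 gave −1.18 (SE 0.59, adjusted p = 0.14) with non-overlapping arrays. Of 21 genes of glucose uptake and glycolysis, 8 rose and 3 fell, beside 16.9% and 15.3% of named genes, with a median of 0.41. The number that rose was 4 with quantile normalization and 3 with normexp, namely SLC2A4, PFKM and PYGB. The number that fell was 1 without fetal array 1.

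For fat, LPL, the lipase that frees fatty acids from circulating triglyceride, read 4.84, 4.73 and 4.08 in adolescent and 2.73, 0.97 and 2.07 in fetal muscle. It was 6.18-fold higher (difference 2.63, SE 0.61, adjusted p = 0.0032). SLC25A20, which carries acylcarnitine into mitochondria, was 1.70-fold higher (difference 0.77, SE 0.21, adjusted p = 0.011), though not without fetal array 3 (adjusted p = 0.0531). PPARA, a regulator of fatty acid genes, gave 0.76 (SE 0.26, adjusted p = 0.0354), and the call ended without adolescent array 1 or 2 or fetal array 2 or 3 (adjusted p = 0.0826, 0.107, 0.128 and 0.075). The muscle and liver forms of carnitine palmitoyltransferase ran apart without passing, CPT1B at 0.85 (SE 0.37) and CPT1A at −1.55 (SE 0.68). PPARGC1A, a driver of mitochondrial growth, gave −0.25 (SE 0.75). Of 11 genes of fatty acid use, 3 rose and none fell, beside 16.9% of named genes higher. Without fetal array 3 the number was 1, a share below that of named genes, and none passed with normexp. LPL is also an adipocyte gene: of 9 adipocyte genes it alone passed (3 genes without fetal array 1), FABP4 gave 1.76 (SE 0.92) with 1 array of each age well above background, and the summed adipocyte signal was 19.3 to 30.6 in adolescent and 3.21 to 8.42 in fetal muscle. The part of fat cells in the LPL difference was not tested.

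Mitochondrial carriers moved in opposite directions. SLC25A4, the muscle isoform of the ADP/ATP carrier, read 9.11, 9.20 and 9.08 in adolescent and 7.94, 8.16 and 7.77 in fetal muscle (difference 1.17, SE 0.33, adjusted p = 0.0119). SLC25A5, the isoform of growing cells, read 0.53, 0.24 and 0.19 against 1.83, 1.82 and 1.47 (difference −1.38, SE 0.28, adjusted p = 0.0012). Neither pair of groups overlapped, and SLC25A5 alone of these passed with normexp. NDUFA2 of complex I rose by 0.85 (SE 0.21) and VDAC1, the outer membrane channel, by 1.09 (SE 0.30). With them, of 9 genes of oxidative phosphorylation 6 rose and 1 fell, beside 16.9% and 15.3% of named genes. That count depended on scaling: with quantile normalization none rose and the median went from 0.68 to 0.25, 1 rose with the deposited table, and without any 1 of adolescent arrays 1 and 2 and the 3 fetal arrays 3 rose.

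Contractile and structural genes of the muscle cell were few on the array. TPM1, a tropomyosin of the thin filament, read 9.07, 9.21 and 9.10 in adolescent and 7.82, 7.94 and 7.97 in fetal muscle, a 2.33-fold rise (difference 1.22, SE 0.32, adjusted p = 0.0084) that did not pass with quantile normalization. MYH7 read 4.90, 4.95 and 5.02 against 3.48, 3.37 and 3.49, and MB 8.54, 8.82 and 8.75 against 7.45, 6.92 and 7.43. Neither pair overlapped, yet with the spread pooled over all groups MYH7 (1.51, SE 0.65) and MB (1.43, SE 0.60) had adjusted p = 0.085 and 0.075, and both passed when the 6 arrays were fitted alone. In the pooled fit the dimmer MYH7 probe passed (1.75, SE 0.62, adjusted p = 0.0400) and the dimmer MB probe did not (1.39, SE 0.63, adjusted p = 0.101). CKB, a creatine kinase of energy buffering, was 3.60-fold higher (difference 1.85, SE 0.23, adjusted p = 2.3e-05, also with normexp). CRYAB, a small heat shock protein of the sarcomere, was 2.94-fold higher (1.56, SE 0.36). Of 5 skeletal muscle genes none passed, and MYH1 and MYH2 were well above background on no adolescent and 1 fetal array. TNNC2, a troponin of fast skeletal muscle, read −1.13, 3.07 and −1.56 in adolescent and −1.26, −1.56 and −1.33 in fetal muscle, so adolescent array 2 stood apart. The summed skeletal muscle signal was 0.52 to 8.46 in adolescent and 0.41 to 0.73 in fetal muscle, and its part in the muscle genes was not tested. NR2F2, a regulator of atrial identity, fell 3.56-fold (−1.83, SE 0.21, adjusted p = 9.5e-06), though with normexp it gave −0.09 and did not pass. GJA1, the gap junction protein connexin 43, gave −1.03 (SE 0.31, adjusted p = 0.0163) but not without adolescent array 1 (adjusted p = 0.0571), and 2 of its 4 probes passed.

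Several collagens fell with age. COL3A1, a fibrillar collagen of pliable tissue, read 3.17, 3.42 and 2.35 in fetal and −0.03, −0.50 and 1.88 in adolescent muscle. Adolescent array 3 came close to the lowest fetal array but the ages did not overlap (5.77-fold, difference −2.53, SE 0.66, adjusted p = 0.0073, all 4 probes). COL5A2, a collagen that nucleates fibrils, read 1.02, 0.82 and 0.65 against −1.03, −1.20 and −0.37 (3.24-fold, difference −1.70, SE 0.34, adjusted p = 0.0012). Both passed with normexp. COL1A2 (−2.10), COL4A1 (−1.76) and COL12A1 (−1.42) passed with adjusted p = 0.0181, 0.0154 and 0.0134, but each lost the call without adolescent array 2 (0.0917, 0.0578 and 0.0558). COL1A2 also lost it without adolescent array 1 or fetal array 1 or 2, COL4A1 without fetal array 2 and COL12A1 without fetal array 3, with adjusted p between 0.0547 and 0.0591. COL1A1 gave −0.90 (SE 0.50, adjusted p = 0.18). Of 13 matrix genes 6 fell and none rose, beside 15.3% and 16.9% of named genes, with a median of −0.90. The number that fell was 2 without adolescent array 2 and 3 without fetal array 2. Of 6 fibroblast markers COL3A1 and COL1A2 fell, VIM gave −0.58 (SE 0.30) and S100A4, also a leukocyte gene, 2.60 (SE 0.83, adjusted p = 0.0237, not without adolescent array 1 or fetal array 3, adjusted p = 0.129 and 0.0957).

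Among signalling genes INHBA, a subunit of activin, fell 5.10-fold (difference −2.35, SE 0.45, adjusted p = 0.00084) and TGFB2, a growth factor of valve and septum formation, 4.52-fold (−2.18, SE 0.37, adjusted p = 0.00033). TGFB2 read 0.09, 0.57 and −0.07 in fetal and −2.38, −2.26 and −1.28 in adolescent muscle, with no overlap, and both passed with normexp. FGF18, a growth factor of skeletal and lung development, fell by 2.51 (SE 0.51, adjusted p = 0.0013), FZD2, a Wnt receptor, by 1.59 (SE 0.34) and WNT5A, a ligand of cell movement, by 1.33 (SE 0.26). SMAD7, an inhibitor induced by TGF-beta itself, fell 2.92-fold (−1.55, SE 0.26, adjusted p = 0.00028), though with normexp it gave −0.12 and did not pass. TGFBR2, the receptor's second chain, went the other way and was 2.29-fold higher (1.20, SE 0.21, adjusted p = 0.00039). Of 43 genes of TGF-beta, BMP, Wnt, Notch, hedgehog and FGF signalling, 10 fell and 4 rose, beside 15.3% and 16.9% of named genes, with a median of −0.42 that turned to 0.38 with normexp. The 4 that rose, TGFBR2, FGF1, FGF2 and GDF9, were 1 without fetal array 1 and 2 without adolescent array 1 or 2 or fetal array 2 or 3. SNAI2, a factor of cell migration in the embryo, fell by 1.43 (SE 0.29, adjusted p = 0.0012), which with normexp turned to 0.055.

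Vessel genes were mixed. KDR, the endothelial receptor for VEGF, read 0.70, 0.18 and 0.27 in fetal and −1.29, −1.22 and −0.83 in adolescent muscle, 2.82-fold lower with all 4 probes below the threshold (difference −1.50, SE 0.40, adjusted p = 0.0088). Its ligand VEGFA did not differ beyond its error (0.08, SE 0.54). CXCR4, a homing receptor of progenitor and vessel cells, fell by 1.66 (SE 0.37, adjusted p = 0.0024) but the probe was well above background on no adolescent array, and it turned to 0.48 with normexp. EPAS1, an oxygen-sensing factor of endothelium, rose 2.96-fold (1.57, SE 0.39, adjusted p = 0.0056, 4 of 4 probes). Of 19 angiogenesis genes 5 fell and 1 rose, and the 3 that fell without fetal array 1 are a share near the 15.3% of named genes lower. The median of −0.69 turned to 0.49 with normexp. Of 8 endothelial markers only KDR passed, and PECAM1 gave −0.39.

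**Figure D3:**
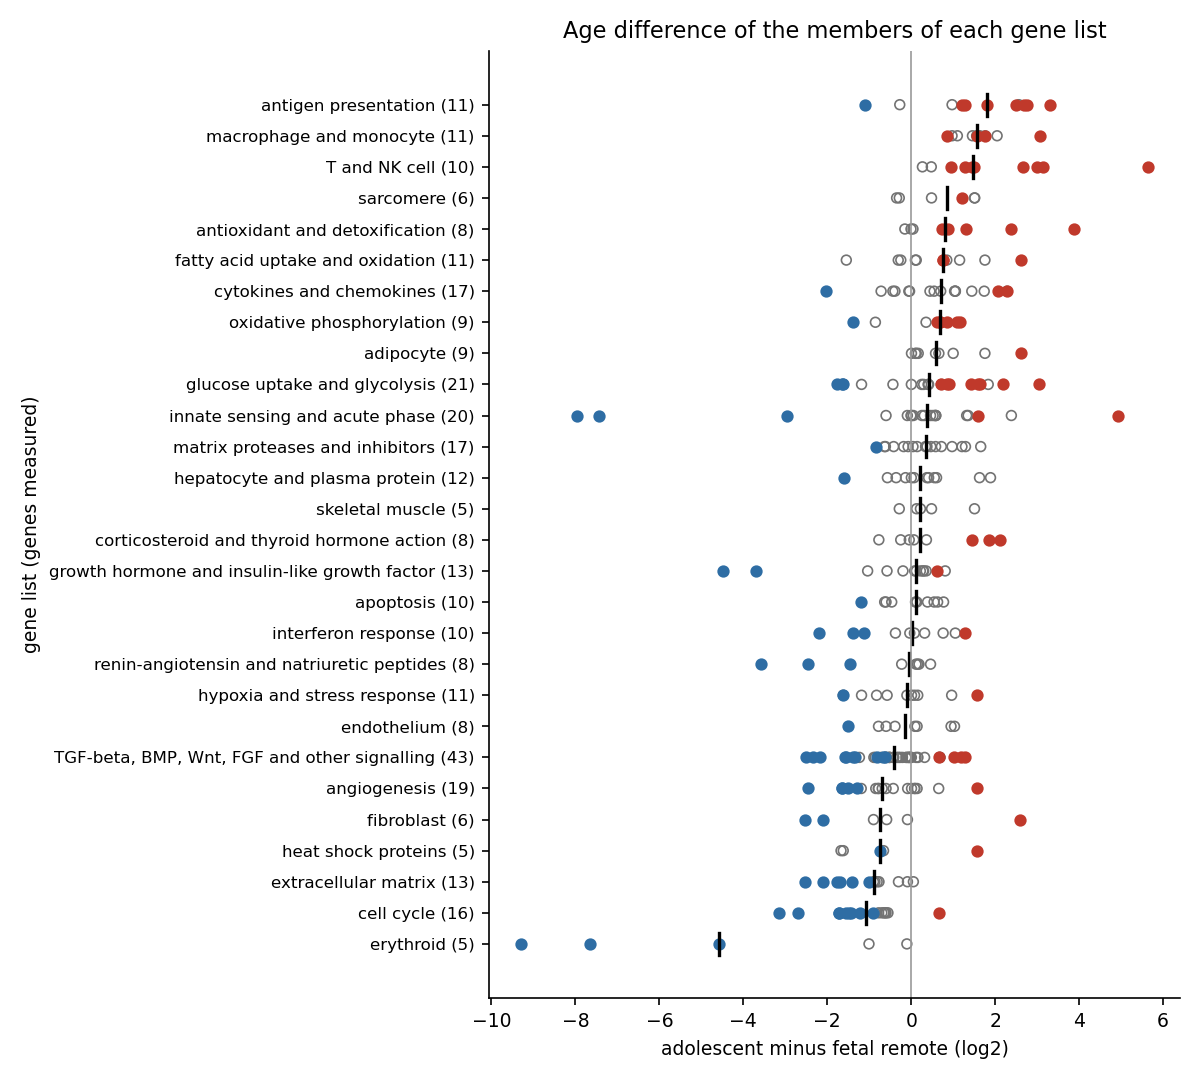
Age difference (adolescent minus fetal remote, log2) of every measured member of each gene list with 5 or more measured genes, the number measured in parentheses. Filled red and blue points passed as higher and lower in adolescent muscle, open points did not pass, and the black bar is the list median, from −4.58 for erythroid to 1.81 for antigen presentation genes.

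T cell genes were higher in adolescent muscle. CD3E, a chain of the T cell receptor complex, read 0.88, 0.08 and 1.30 in adolescent and −2.02, −2.55 and −2.60 in fetal muscle. It was 8.83-fold higher with no overlap (difference 3.14, SE 0.30, adjusted p = 1.3e-06). Its partners CD3D and CD3G were 8.02-fold and 6.38-fold higher (3.00, SE 0.31, and 2.67, SE 0.43). GNLY, granulysin, a pore-forming peptide of killer cells, read −0.50, −0.42 and 0.49 in adolescent and −5.05, −7.37 and −4.96 in fetal muscle, where 1 array was well above background. Its difference of 5.65 (SE 0.62, adjusted p = 5.8e-06) was the highest of all named genes, and the lowest of its 3 probes gave 1.37. Of 10 T and NK cell genes 8 rose and none fell, against 16.9% of named genes higher. The median was 1.47, and CTLA4 (0.27) and CD247 (0.48) did not pass. The count was 5 without fetal array 2 and 3 with normexp (CD3D, CD3E and GNLY). Their summed signal was 3.33 to 6.41 in adolescent and 0.68 to 1.23 in fetal muscle. Of 17 probes for T cell receptor chains 8 were higher and none lower, with a median of 0.99, and 1 passed with normexp. Of 44 immunoglobulin probes 9 were higher and none lower, a share near the 15.2% of all probes higher, with a median of 1.84 and 2 passing with normexp. Of the B cell genes CD40, a receptor for T cell help, fell by 0.85 (SE 0.23, turning to 0.21 with normexp), and XBP1 gave −0.82 (SE 0.35). In each immunoglobulin or receptor family probes differ by variable regions and may share signal. XCL1, a chemokine made by T and NK cells, was 4.21-fold higher (2.08, SE 0.38, adjusted p = 0.0006, also with normexp).

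Antigen presentation moved the same way. OLA-DRB1, a class II chain that shows peptides to helper T cells, read 1.99, 1.29 and 1.71 in adolescent and −0.56, −1.29 and −1.40 in fetal muscle. It was 6.71-fold higher with no overlap (difference 2.75, SE 0.38, adjusted p = 4.7e-05), and OLA-DRB3 (2.69, SE 0.40) and OLA-DQA2 (2.49, SE 0.39) stood close by. All 3 passed with normexp, as did OLA-DQA1 (1.81, SE 0.40), but sequences of class II genes are alike and their probes may share signal. B2M, the light chain of class I molecules, read 5.65, 5.63 and 5.82 against 4.46, 4.09 and 4.95 (2.30-fold, difference 1.20, SE 0.27, adjusted p = 0.003). It lost the call with the deposited table (0.72, adjusted p = 0.0665) and with normexp (0.89, adjusted p = 0.456). Of 15 probes for MHC class I heavy chains 14 passed as higher, beside 15.2% of all probes. All 15 had non-overlapping groups, as had 46.6% of named genes. Differences of the 15 ran from 2.13 to 4.64 with a median of 2.34, and 8 passed with normexp. CD1B, which presents lipids, was 9.87-fold higher (3.30, SE 0.71, adjusted p = 0.002), with 1 fetal array well above background. Of 11 antigen presentation genes 7 rose and 1, CD1D, fell by 1.11, beside 16.9% and 15.3% of named genes. With normexp 5 genes of this list passed as higher. The count of 7 was the same when any 1 of the 6 arrays was left out.

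SAA3, TNF and 4 of 11 macrophage and monocyte genes rose, while neutrophil granule genes fell, as given above. SAA3, a serum amyloid A made locally in inflamed tissue, read 3.56, 1.43 and 4.46 in adolescent and −0.61, −0.98 and −3.72 in fetal muscle. The adolescent arrays all lay above the fetal ones (30.2-fold, difference 4.92, SE 0.95, adjusted p = 0.00086, also with normexp). FCGR2B, an inhibitory antibody receptor, was 8.45-fold higher (3.08, SE 0.68, adjusted p = 0.0024), also with 1 fetal array well above background. CD14, the monocyte co-receptor for bacterial lipid, read −0.20, −2.18 and −1.48 against −2.59, −3.13 and −3.37 (1.75, SE 0.50, adjusted p = 0.0134). It lost the call without adolescent array 1 (adjusted p = 0.0865) or fetal array 3 (adjusted p = 0.0517). TNF, a cytokine of activated macrophages, was 4.89-fold higher (2.29, SE 0.49, adjusted p = 0.0019), while IL1A fell by 2.03 (SE 0.55, adjusted p = 0.0099) and IL6 gave 2.28 (SE 0.98) with no fetal array well above background. IL1A lost the call without adolescent array 3 (adjusted p = 0.0625) or fetal array 1 (adjusted p = 0.0503) and turned to 0.45 with normexp, and raised to the background limit it did not pass (adjusted p = 0.0673). Of 11 macrophage and monocyte genes all had differences above 0 and 4 passed, beside 16.9% of named genes higher. Without adolescent array 1 or fetal array 3 the number that passed was 2. The summed macrophage signal was 15.4 to 42.3 in adolescent and 7.12 to 9.30 in fetal muscle. A lysozyme probe (LOC443321) and CR2, a complement receptor of B cells, were among the 12 highest with 3.43 and 3.16. Adolescent array 1 read 2.94 and 0.91 for them and the other adolescent arrays −3.24 to −0.16 and −3.66 to −2.87, and without it their adjusted p was 0.228 and 0.22. The lysozyme call also ended without adolescent array 2 or any fetal array (adjusted p between 0.0659 and 0.0925), and that of CR2 without any fetal array (0.0539 to 0.106).

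Interferon genes were mixed. IRF3, a sensor-activated factor, fell 2.17-fold (−1.12, SE 0.14, adjusted p = 1.5e-05), and IRF1 rose by 1.28 (SE 0.36, adjusted p = 0.0122, not without fetal array 2 or 3, adjusted p = 0.0681 and 0.0501). ISG15, a ubiquitin-like antiviral protein, fell by 2.21 (SE 0.67, adjusted p = 0.0181) and MX1, an antiviral GTPase, by 1.39 (SE 0.50, adjusted p = 0.0431). ISG15 lost the call without adolescent array 3 or fetal array 1 or 3 (adjusted p = 0.0798, 0.0596 and 0.0801) and MX1 without any 1 of the 3 adolescent arrays or fetal array 3 (0.0686 to 0.244). Of 10 interferon genes 3 fell and 1 rose, beside 15.3% and 16.9% of named genes, with a median of 0.02. Without adolescent array 3 or fetal array 3 the number that fell was 1.

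Enzymes of detoxification and several single genes were much higher at 6 months. ALDH1A1, which makes retinoic acid and clears aldehydes, read 5.04, 4.62 and 4.82 in adolescent and 0.72, 1.24 and 0.92 in fetal muscle (14.6-fold, difference 3.87, SE 0.50, adjusted p = 2.5e-05). ACSS2, which turns acetate into acetyl-CoA, read 0.88, 1.40 and 0.91 against −2.37, −3.02 and −2.58 (13.2-fold, difference 3.72, SE 0.37, adjusted p = 2.5e-06). TUBA4A, an alpha tubulin, read 3.07, 3.16 and 2.92 against −0.57, −0.24 and −0.57 (11.4-fold, difference 3.51, SE 0.27, adjusted p = 2.0e-07). For each of these 3 the arrays of an age lay close together and the ages far apart, and all 3 passed with normexp. ITGB6, an integrin chain known from epithelium, read −0.25, −0.42 and −0.52 against −3.79, −4.83 and −6.11 (22.8-fold, difference 4.51, SE 0.56, adjusted p = 2.0e-05), with 2 of 3 fetal arrays well above background, and it passed with normexp. GSTM3, a glutathione transferase, rose 5.19-fold (2.38, SE 0.36), SOD2, the mitochondrial superoxide dismutase, 2.46-fold (1.30, SE 0.37) and SOD1 1.85-fold (0.89, SE 0.20). Of 8 antioxidant genes 5 rose and none fell, beside 16.9% and 15.3% of named genes. With normexp 2 of the 5 passed (ALDH1A1 and GSTM3). Also among the 12 highest were EM4E (3.10, SE 0.42, at least 2.00-fold higher) and a CD1 probe, LOC443442 (3.15, SE 0.82). Among plasma protein genes of the liver, ALB gave 0.60 (SE 1.13) and AHSG 1.89 (SE 1.33), and of 12 only SERPINC1 passed, at −1.59.

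The remaining lists held few calls, to be read beside the 16.9% of named genes higher and 15.3% lower. Of 17 cytokine and chemokine genes TNF and XCL1 rose and IL1A fell, and of 20 genes of innate sensing and acute phase SAA3 and TLR4 rose while CATHL3, BAC5 and LTF fell. TLR4, the receptor for bacterial lipid, gave 1.59 (SE 0.46) and lost its call without adolescent array 1 or fetal array 2 or 3. Its dimmer probe did not pass (1.04, SE 0.82, adjusted p = 0.363), nor did the mean of its probes (1.32, adjusted p = 0.114). Of 17 matrix proteases and inhibitors MMP2, a gelatinase, fell by 0.85 (SE 0.25, adjusted p = 0.0139), though not without adolescent array 1 or fetal array 1 (adjusted p = 0.0791 and 0.0598). Its dimmer probes gave −0.36 and −0.49 and did not pass (adjusted p = 0.456 and 0.221), nor did the mean of its probes (−0.57, adjusted p = 0.127). Of 10 apoptosis genes BCL2, which protects mitochondria from death signals, fell by 1.21 (SE 0.34, adjusted p = 0.0126). Of 3 adrenergic genes PRKACA, the catalytic subunit of protein kinase A, rose 2.15-fold (1.1, SE 0.19, adjusted p = 0.00031), while the receptor ADRB1 gave 0.40 (SE 0.41). CNN1, calponin of smooth muscle, fell by 1.99 (SE 0.66, adjusted p = 0.0298, not without adolescent array 1 or 2 or fetal array 2, but also with normexp). None of 3 complement genes or 3 mast cell genes passed.

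The same age difference was then set against that in tissue of other hearts and zones, each tested as a difference of differences in 1 fit. Against sham hearts, 1 of 12454 probes differed (0.00803%, 865 at an unadjusted p under 0.05), an unnamed one at 1.37 in remote and −0.46 in sham tissue. Of the 3882 probes called in remote muscle 96.1% had the same sign in sham hearts, beside 78.6% of all probes, and these comparisons share no arrays. Against border tissue, 1 unnamed probe differed (0.00803%, 1736 unadjusted), at −2.83 in remote and 0.23 in border tissue. No named gene differed from sham or border. A count near 0 does not show equal differences: the median SE of the comparison with sham was 0.43.

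Against the infarct, 2645 probes differed (21.2%), and 180 of the named genes (20.3%). Of 3882 probes called in remote muscle 56.8% had the same sign in the infarct, beside 53.3% of all probes. Of the 1830 called in remote muscle that also differed from the infarct, 1414 had the opposite sign there. The 1830 were selected for a wide gap, which favours opposite signs, so this count does not measure how common reversal was. A value near 0 in the infarct, such as that of CDK1, also counts as opposite. Genes of cell division and of muscle metabolism were among the 1830. CDK1 differed by −3.14 (SE 0.36) with age in remote muscle and by 0.02 (SE 0.36) in the infarct, a gap of −3.16 (SE 0.51, adjusted p = 0.00043). CCNA2 (0.43 in the infarct), TYMS (0.59), CCNB1 (0.60), PCNA (0.79) and CDK2 (−0.13) also differed from their remote values, as did 9 of the 16 cell cycle genes. SLC2A4 was 3.04 higher in remote muscle and gave −1.79 (SE 0.68) in the infarct, a gap of 4.83 (SE 0.96, adjusted p = 0.0019). PFKM (−2.26 in the infarct), PYGM (−2.76), TPM1 (−2.39) and SLC25A4 (−2.49) turned in the same way, each with adjusted p = 0.00014 or less, and 10 of 21 glucose genes and 8 of 9 oxidative phosphorylation genes differed. MYH7 and MB, the cardiomyocyte markers, gave −4.94 and −3.66 in the infarct, gaps of 6.45 and 5.09 that move with these genes. The part of lost muscle in them was not tested. TUBA4A and ACSS2 were at 0.02 and −0.12 in the infarct.

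**Figure D4:**
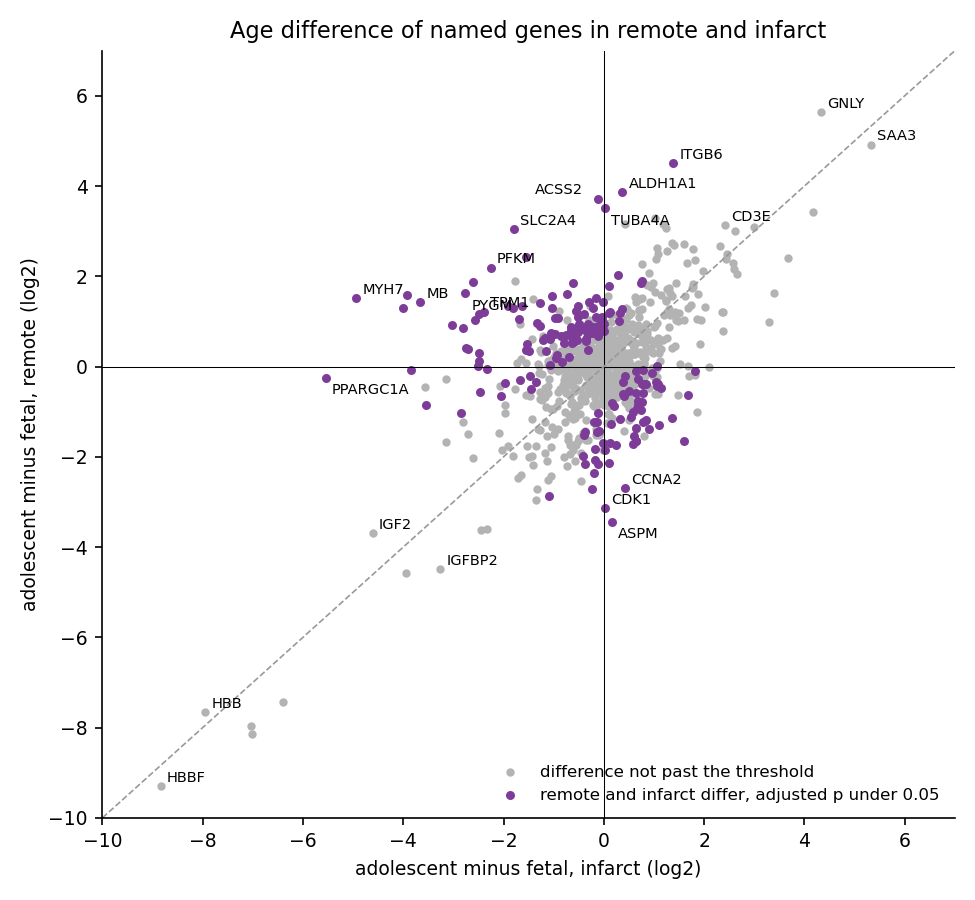
Age difference (adolescent minus fetal, log2) of the 885 named genes in remote muscle against that in infarct tissue, with the line of equality dashed. Purple points are the 180 genes whose age differences differ between the zones at adjusted p under 0.05, among them SLC2A4 (3.04 and −1.79) and CDK1 (−3.14 and 0.02), while HBBF and IGF2 lie near the line.

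Other members kept the direction of their age difference in every zone. IGF2 gave −3.69 in remote, −3.33 in sham, −4.38 in border and −4.61 in infarct tissue, and the gap to the infarct was 0.92 (SE 0.42, adjusted p = 0.13). HBBF gave −9.30, −9.07, −5.90 and −8.84. CD3E gave 3.14, 3.60, 2.33 and 2.41, with a gap to the infarct of 0.73 (SE 0.42, adjusted p = 0.23), and SAA3 4.92, 4.87, 4.81 and 5.33. Of the 10 T and NK cell genes 1 differed from the infarct, of the 11 antigen presentation genes 1 and of the 5 erythroid genes none. Among all named genes 20.3% differed, so counts this small do not set these lists apart. A gap that did not pass does not show that the zones were alike.

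**Figure D5:**
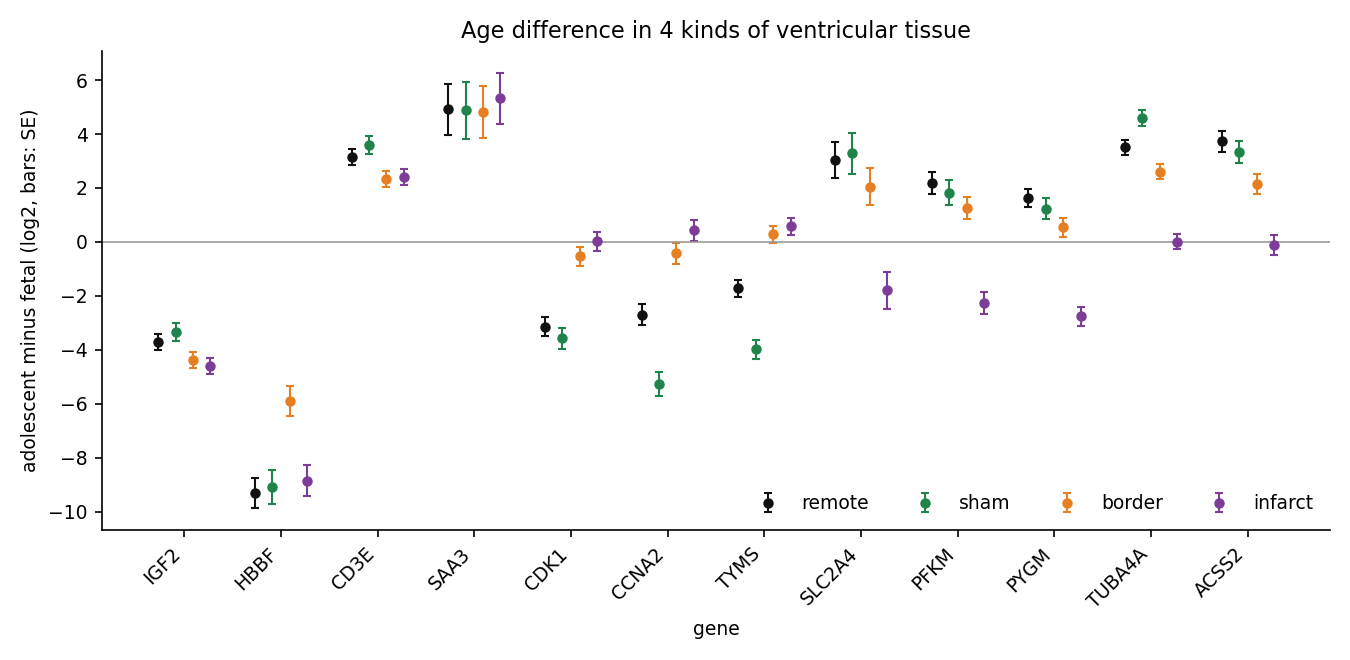
Age difference (adolescent minus fetal, log2, bars 1 SE) of 12 genes in remote, sham, border and infarct tissue. IGF2, HBBF, CD3E and SAA3 keep their direction in all 4 tissues, and CDK1, TYMS, SLC2A4, PFKM and PYGM differ between remote muscle and infarct.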

How the data were processed

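Total RNA of ventricular tissue was labelled with Cy3 and hybridised to 1-colour Agilent arrays, 3 per group except 2 adolescent sham, 8 groups in all. The deposited scanner files, made with Agilent Feature Extraction 10.1.1.1 per the file headers, hold processed signal intensity, background-corrected by that software. Spots flagged as outliers were left out, spots of 1 probe averaged, log2 taken and the array's 75th percentile subtracted. A probe was tested if well above background on at least 2 arrays of any group, and a gene is its brightest tested probe over all arrays. limma 3.58.1 (R 4.3.3) was fitted over all 23 arrays (15 residual degrees of freedom), threshold 0.05 after Benjamini-Hochberg adjustment, and checked on simulated data. The number of arrays limits precision.

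The authors' deposited value table holds log2 values of 8411 probes on the same arrays and served as an alternative. Its column medians ran from 9.27 to 9.31, and it correlated with the scanner log2 at 0.954 to 0.981 with a slope of 0.68 to 0.78. Its centring and exact normalization stay unknown. The submitters' processing notes name limma.

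Probes were named from the files' annotation matched by accession, gene ID or symbol to a RefSeq table of assembly ARS-UI_Ramb_v3.0 (names only): 1753 of 15008 probes, 1063 names. Genes described were the 12 highest and 12 lowest called with 1 sign on all slides, up to 4 per list by moderated t, and a fixed list. Members and lists were chosen with earlier results of these data known, and no set test was run. Where no array of a group was well above background, the fold is a bound against each array's dimmest probe that was well above background (means of log2 values). Such a bound holds for the main background correction alone. Alternatives were normexp (offset 50), quantile and median scaling, the deposited table, other filters, the 6 arrays alone, the slide as a block, array weights, an intensity trend, another probe rule and leaving out each array.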

Additional observations from a re-analysis of the deposited data

Results flagged for a closer look

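For 52 of the 165 genes described, the age difference in remote muscle (adolescent minus fetal) differed from that in infarct tissue. The test was that of the difference of differences, with adjusted p under 0.05 in limma. Over all 885 named genes the number was 180 (20.3%). The genes described were partly picked by their remote differences, so the count of 52 is no result about them as a set. Values are remote less infarct on the log2 scale. No gene was picked out against sham or border tissue, and groups of 3 arrays were not tested for outlying samples. The cardiomyocyte markers MYH7 and MB are among the 52, and their part in the other values was not tested.

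Among muscle and heart genes the gaps were MYH7 at 6.45, the widest of the 52, MB at 5.09, TPM1 at 3.61, CRYAB at 2.60, CKB at 1.11, ATP1B1 at 1.81, HAND1 at 2.03 and ADRB1 at 3.11. The non-muscle myosin light chain MYL6 was at −0.73. For fuel use the gaps were 5.30 for PPARGC1A, 4.83 for SLC2A4, 4.45 for PFKM, 4.39 for PYGM, 2.69 for PYGB, 2.18 for ALDOA and 1.19 for HK1. CPT1B was at 3.67, PPARA at 1.82 and ACSS2 at 3.85. Mitochondrial genes gave 3.66 for SLC25A4, 1.38 for NDUFA2 and 1.25 for VDAC1, against −2.29 for SLC25A5.

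Cell division genes were lower in the remote contrast: ASPM at −3.60, CDK1 at −3.16, CCNA2 at −3.12, TYMS at −2.31, CCNB1 at −2.15, PCNA at −2.01 and CDK2 at −1.31, while the inhibitor CDKN1C was at 1.92. Matrix, vessel and signalling genes gave −1.68 for COL5A2, −2.32 for PLAU, −2.15 for INHBA, −2.30 for CXCR4, −1.54 for NOS3, −1.34 for SNAI2 and −1.65 for NR2F2, and 1.09 for TGFBR2. Hormone and growth receptors gave 1.82 for IGF2R, 1.52 for INSR and 1.74 for THRB, and PRKACA 1.13.

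Among stress and immune genes the gaps were 3.50 for ALDH1A1, 1.5 for SOD2, 1.11 for SOD1, 2.29 for TXNIP, 1.19 for TYROBP, −1.53 for CD40 and −2.04 for BCL2. The last 2 were TUBA4A at 3.49 and ITGB6 at 3.13.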

How the results depend on the processing

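Of 165 genes described, 98 passed, and 74 of the 98 passed in all 6 fits that leave out 1 array. The 3882 probes called were 489 with normexp (488 of the same probes and sign) and 2939 to 3383 without 1 array. Median scaling gave 3841, of which 58.1% were higher. With normexp 61 of the 98 genes lost the call and 7 turned without passing: ASPM to 0.055, CD40 to 0.21, CXCR4 to 0.48, IL1A to 0.45, MEG3 to 0.83, SERPINC1 to 0.47 and SNAI2 to 0.055; the cause was not tested. The median over all probes was 0.48 with normexp and 0.11 with median scaling. Other settings lost 0 to 14 of the 98 calls. The comparison with sham, 1 probe, gave 0 with the deposited table, normexp or quantile normalization and 0 to 2 without 1 array. The comparison with border, 1 probe, gave 34 with the deposited table, 3 with quantile normalization, 0 with normexp, no filter or the slide as a block, and 0 to 13 without 1 array. The comparison with infarct, 2645 probes, gave 269 with normexp and 2040 to 2531 without 1 array. The replicate block, the slide shared by arrays of 1 number, gave 4226 probes for the age comparison, lost none of the 98 genes and added 10. Arrays of 1 number correlated in their deviations at 0.22, 0.23 and −0.03, so the numbers were not taken as pairs. Signal over background limited the rest: 9543 of the 12454 probes were well above background on all 6 remote arrays.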

Other observations

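The genes below belong to no list described above and were chosen after their values were seen, so they are descriptions. FBXO32, a ubiquitin ligase of muscle protein breakdown, was 2.42 higher (SE 0.40, adjusted p = 0.000229 by limma) in adolescent remote muscle and −1.55 in the infarct contrast. Of 6 genes with a proteasome symbol (PSM) 4 were higher and none lower, beside 16.9% and 15.3% of named genes. PSMA6 was higher by 0.92 (SE 0.15), PSMD4 by 0.95, PSMC4 by 0.63 and PSMB8 by 1.28, while PSMB7 gave 0.19 and PSME2 0.03. SQSTM1, an adaptor of autophagy, was higher by 1.27 (SE 0.22). DBP, a clock-controlled transcription factor, was higher by 1.35 (SE 0.28), NAMPT, which makes NAD, by 1.35 and FLT3LG, a growth factor of dendritic cells, by 1.90 (SE 0.17).

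On the fetal side stood LMNB1, a nuclear lamin of dividing cells, at −2.14, CPE, which processes peptide hormones, at −2.86 (SE 0.32), and EEF1A1, an elongation factor of protein synthesis, at −2.17 (SE 0.22). The prolyl isomerases PPIA and PPIB gave −1.26 and −1.17. Of 24 ribosomal protein genes (RPL and RPS) 20 did not pass. RPL13 at −0.54, RPSA at −0.51 and RPL4 at −0.39 fell, and RPL32 rose by 0.81. Of the genes named here FBXO32, FLT3LG, CPE and EEF1A1 also passed with normexp.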
